A study of Mus musculus with 9 samples.

Results

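The fibroblast growth factor (FGF) ligands, their receptors and the genes through which the MAP kinase cascade restrains itself were followed in 9 mouse RNA-seq libraries. Members were picked by gene symbol: Fgf with a number, Fgfr1 to Fgfr4, Spry1 to Spry4, Spred1 to Spred3, Dusp4 to Dusp6, and Etv1, Etv4 and Etv5. The rule gave 39 of 24444 gene symbols. They comprise 22 ligand genes, 4 receptor genes, 7 Sprouty and SPRED genes, 3 phosphatase genes and 3 ETS factor genes. Enough counts for a test were found for 30 of them, and Fgf4, Fgf6, Fgf8, Fgf15, Fgf16, Fgf17, Fgf21, Fgf23 and Spry3 were not tested.

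The libraries form 3 groups of 3. MycT58A tumours and EV tumours model WNT medulloblastoma, a tumour of the cerebellum and brainstem, and were grown orthotopically in CD1-nude hosts, athymic mice that accept foreign cells. The cells implanted in both groups were of the background Blbp-Cre, Ctnnb1Ex3flx/flx, Trp53flx/flx and Pik3caE545K +/flx. Blbp is a promoter of neural progenitors and radial glia, loss of exon 3 of Ctnnb1 stabilises beta-catenin, Trp53 encodes p53, and the Pik3ca allele encodes an activated PI3-kinase. These cells carried either MycT58A, a Myc form that is degraded more slowly, or EV, read here as empty vector. The remaining group, control cerebellum, came from normal CD1-nude brain and carries none of these alleles. Tumour pieces were cut from GFP-positive regions, so host cells can contribute RNA. The design text calls the libraries of a group biological replicates, and the labels do not say how old the animals were or whether several lines of cells were implanted.

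Secreted FGFs bind, together with heparan sulphate, receptor tyrosine kinases encoded by Fgfr1 to Fgfr4. The receptors act through RAS, RAF and MEK on the kinase ERK. ERK signalling induces the PEA3-type ETS factors (Etv1, Etv4, Etv5) and its own brakes: Sprouty and SPRED proteins act on the pathway near RAS and RAF, and Dusp4, Dusp5 and Dusp6 encode phosphatases that remove phosphate from MAP kinases. Fgf11 to Fgf14 are exceptions, since their products stay inside cells and bind voltage-gated sodium channels of neurons. In the embryo, Fgf8 and Fgf17 from the isthmus at the midbrain-hindbrain border pattern the cerebellum.

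Promoter sequences are shown for 3 members on which the results turn. Fgf3 is a secreted ligand first found as a gene activated by mammary tumour virus insertion. It had no count in control cerebellum and few in MycT58A tumours, while the brakes Dusp6 and Spry1 rose in both tumour groups. Each sequence runs 5′ to 3′ from 250 bases before to 50 bases after the annotated start in RefSeq (GRCm38.p6). The capitals in Fgf3 mark TTCAAAG, the reverse complement of the TCF/LEF motif CTTTGAA, and the other 2 promoters hold none of the motifs searched.
Fgf3 promoter, chr7:144838362-144838661, plus strand: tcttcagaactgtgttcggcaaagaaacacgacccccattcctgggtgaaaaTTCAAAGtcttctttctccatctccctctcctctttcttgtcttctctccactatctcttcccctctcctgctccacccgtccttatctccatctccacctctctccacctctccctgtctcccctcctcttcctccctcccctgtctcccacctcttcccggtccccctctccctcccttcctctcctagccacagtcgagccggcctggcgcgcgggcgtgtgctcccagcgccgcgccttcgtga
Dusp6 promoter, chr10:99262981-99263280, plus strand: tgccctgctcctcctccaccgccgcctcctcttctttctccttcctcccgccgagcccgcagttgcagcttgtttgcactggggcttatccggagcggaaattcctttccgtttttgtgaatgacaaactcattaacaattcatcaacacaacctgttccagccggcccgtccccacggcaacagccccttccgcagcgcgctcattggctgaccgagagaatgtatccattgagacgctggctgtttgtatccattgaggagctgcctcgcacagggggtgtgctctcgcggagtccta
Spry1 promoter, chr3:37639697-37639996, plus strand: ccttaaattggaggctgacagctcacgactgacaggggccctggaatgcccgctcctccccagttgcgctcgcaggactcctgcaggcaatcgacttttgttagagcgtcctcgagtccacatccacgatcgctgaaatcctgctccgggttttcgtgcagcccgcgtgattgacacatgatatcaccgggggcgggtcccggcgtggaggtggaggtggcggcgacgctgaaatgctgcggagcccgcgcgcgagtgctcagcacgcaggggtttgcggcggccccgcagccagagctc

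RefSeq promoters matched 28 of the 39 members, with 37 promoters in all. The TCF/LEF letters (CTTTGAT or CTTTGAA, both strands) occurred in 3 of these 37 promoters (8.11%), those of Fgf3, Fgf6 and Fgf23, against 8.65% of all 32851 promoters of that length. In Fgf3 the match begins 198 bases before the start. The E-box CACGTG stood in the promoters of Fgf6, Fgf21 and Fgfr2, again 8.11% against 7.15% of all promoters. The ETS letters CCGGAAG, searched on both strands, were in 0 of the 37 members' promoters and in 8.86% of all. The searched motifs do not overlap each other in these promoters. Such matches describe letters in these windows and are no evidence of binding or its absence.

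Total counts per library ranged from 16631523 to 30410089, and 15171 genes were tested. Levels below are CPM, counts scaled to the TMM-adjusted library size. Myc itself, the engineered gene, stood at 918, 859 and 727 CPM in MycT58A tumours, at 360, 19.9 and 762 CPM in EV tumours and at 0.94, 1.59 and 32 CPM in control cerebellum. The library labelled EV replicate 3 was therefore within the MycT58A range for Myc. EV replicate 1, at 360 CPM, was below that range and above every control library. The labels are kept as given, and the cause of these levels was not tested. The library labelled EV replicate 3 also held 1270 CPM summed over 9 epithelial markers, against 27.6 and 96 CPM in the other EV libraries. For some EV results the value without this library is therefore given as well, and all other EV values include it. In control cerebellum the granule neuron marker Gabra6 had 888, 788 and 522 CPM and the Purkinje cell marker Pcp2 206, 138 and 167 CPM, while the forebrain cortex marker Emx1 had no count in any library. The 8 cortex markers together summed to 192 to 247 CPM there. The growth protocol speaks of control cortex, where the sample labels say cerebellum.

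In MycT58A tumours against control cerebellum, 9 of the 30 tested members rose and 14 fell (edgeR adjusted p under 0.05), which is 76.7% of them against 62.2% of all genes tested. By direction the background was 31.2% of all genes higher and 31% lower. In EV tumours against control cerebellum, 11 members rose and 14 fell, 83.3% of the tested members against 57% of all genes. That background was made up of 30.7% higher and 26.3% lower. In MycT58A against EV tumours, Fgf3 and Spry4 fell and no member rose, 6.67% of the tested members against 8.3% of all genes (3.28% higher, 5.02% lower). Those 1259 genes split into 498 higher and 761 lower, and into 301 and 938 of 1239 when scaled by library size alone. At an unadjusted p under 0.05, 7 of the 30 members (23.3%) and 31.1% of all genes passed between the tumours. A member that passed the count filter only through the group where it is high had to differ, so these shares describe the tested members and carry no test. The same limit falls on the p-values against control of Fgf2, Fgf5, Fgf7 and Fgf22, kept through control libraries alone. It also falls on those of Fgf20 and Fgfr4, kept through tumour libraries alone. The median log2 fold change of the tested members was -1.49, -0.93 and -0.30 in the same order of comparisons, and that of all genes tested was -0.03, 0.14 and -0.04.

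Libraries of 2 groups often did not overlap at all. Against control cerebellum, MycT58A tumours lay wholly above for 12 tested members and wholly below for 16, where the background is 82.5% of all genes (41% above, 41.5% below). EV tumours lay above for 9 and below for 15, with a background of 62.5% (30.3% above, 32.2% below). MycT58A tumours lay above EV tumours for 3 members and below for 4, with a background of 31.8% (18.2% above, 13.6% below). The 3 above were Fgf10, Spred1 and Spred2, and the 4 below were Fgf3, Fgf20, Spred3 and Spry4.

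**Figure D1:**
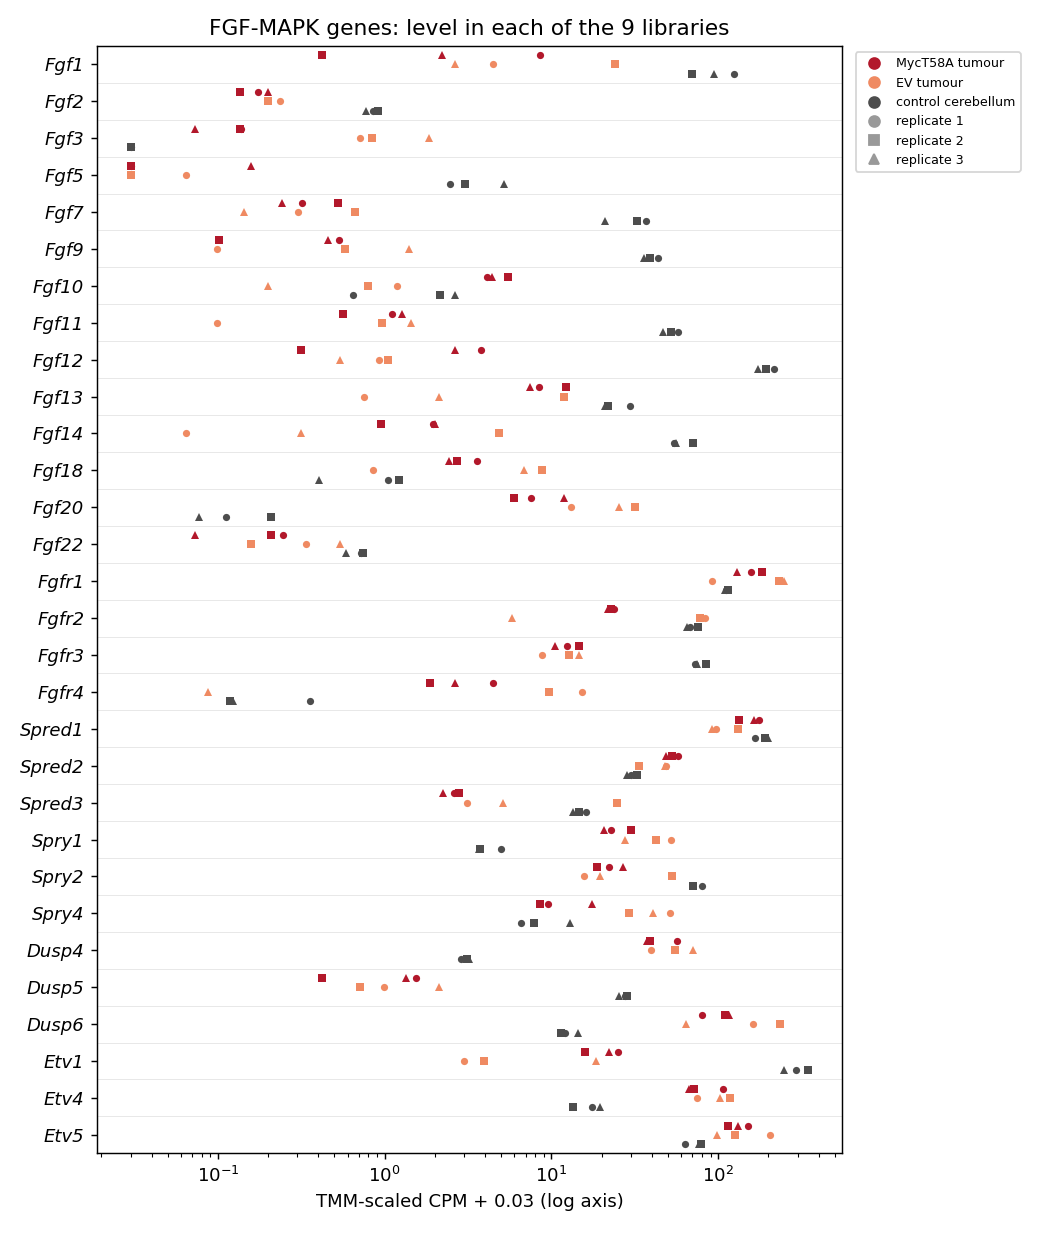
CPM of each tested member in each library on a log axis, with 0.03 added so that a count of 0 can be drawn; red is MycT58A tumour, orange EV tumour and dark grey control cerebellum, and symbols give the replicate. Most ligands lie far left of control in both tumour groups, while Fgf20, Fgf3, Fgfr4, Spry1, Dusp4, Dusp6 and Etv4 lie right of it. The exception is Fgfr4 in EV replicate 3, which at 0.0567 CPM lies left of every control library.

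**Figure D2:**
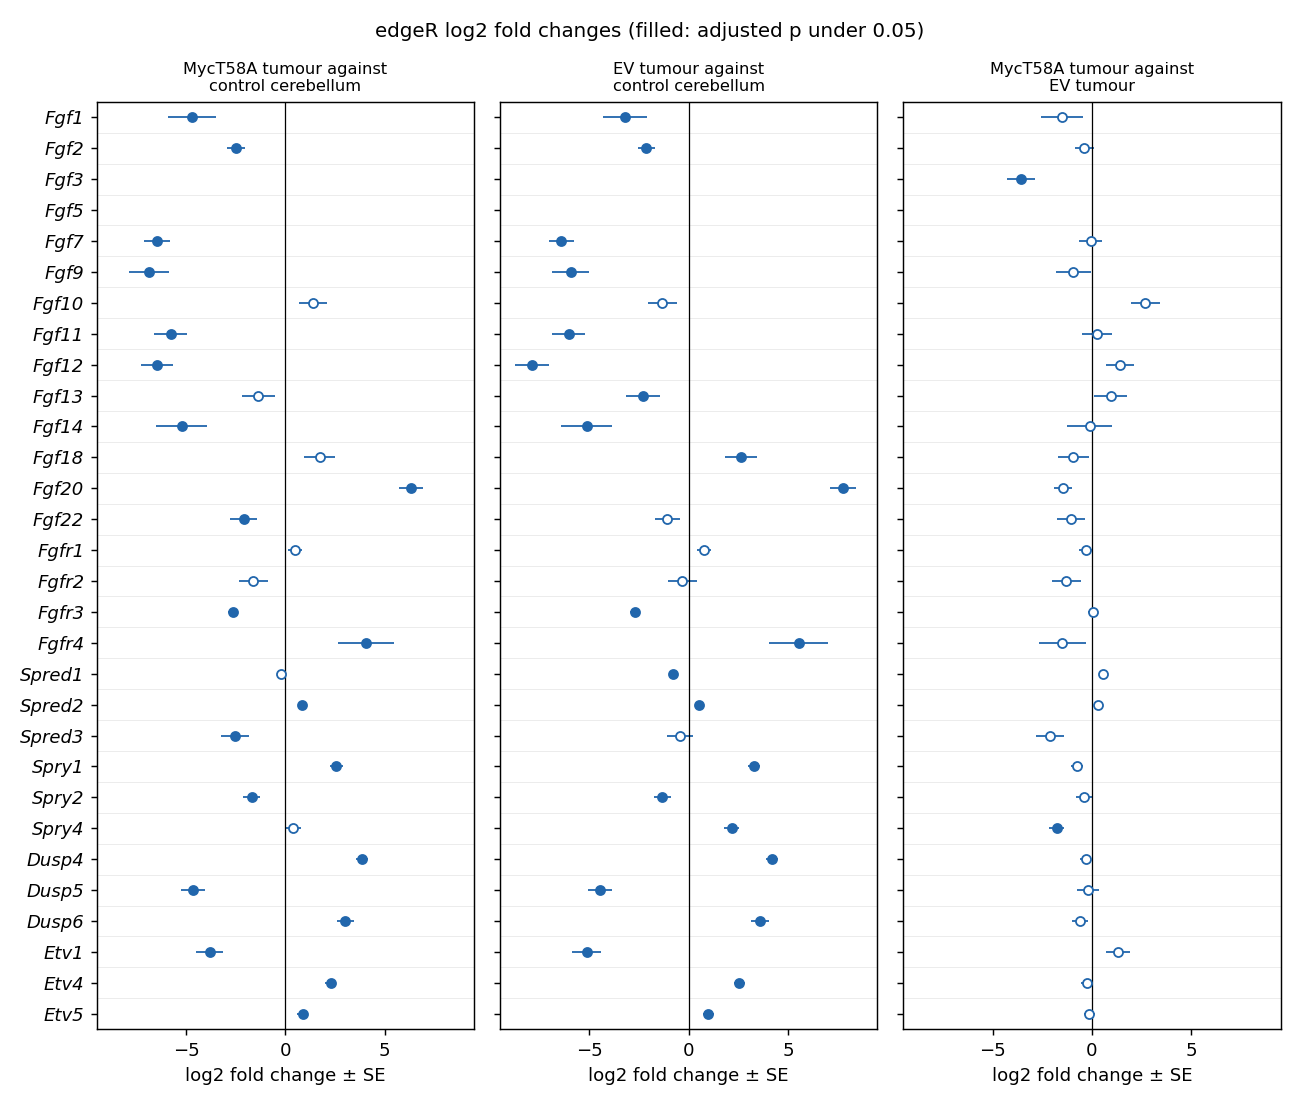
Log2 fold change with its SE from edgeR for each tested member in the 3 comparisons, filled where the adjusted p is under 0.05. Fgf3 and Fgf5 against control, and Fgf5 between the tumours, are left blank because a group there has 3 counts or fewer; in the right panel only Fgf3 and Spry4 are filled.

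Among the ligands, Fgf20 stood out in the tumours. Fgf20 (chr8:40279166-40308331, minus strand, mm10) encodes a secreted ligand that has been described as a target of beta-catenin. It had 7.56, 5.93 and 11.9 CPM in MycT58A tumours, 13.0, 31.8 and 25.3 CPM in EV tumours, and 0.0817, 0.177 and 0.0467 CPM in control cerebellum. Every tumour library was above every control library, and all 3 MycT58A libraries were below all 3 EV libraries. The log2 fold change against control was 6.30 ± 0.61 (SE) in MycT58A tumours (edgeR adjusted p = 7.71e-05) and 7.77 ± 0.63 in EV tumours (edgeR adjusted p = 4.70e-05). Control cerebellum held 7 counts in all, and without its replicate 2 these values were 6.92 and 8.40. Between the tumours the difference was -1.47 ± 0.45 and did not pass (edgeR adjusted p = 0.0734), except without EV replicate 1 (-1.75, edgeR adjusted p = 0.0356) and with DESeq2. Its exons share 202 bases with Micu3 on the opposite strand, so reads of the pair cannot be told apart there. In bulk tissue, fewer cells that express a gene and less RNA per cell cannot be told apart, here or for any value that follows.

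Fgf3 was the ligand called between the tumours, on few counts. It had 3, 3 and 1 counts in MycT58A tumours, 20, 19 and 32 counts in EV tumours and none in control cerebellum. All 3 MycT58A libraries lay below all 3 EV libraries, at 0.108, 0.107 and 0.0426 CPM against 0.685, 0.807 and 1.81 CPM. The log2 fold change between the tumours was -3.58 ± 0.70 (SE, edgeR adjusted p = 0.0344). Fgf3 passed the count filter only through the EV group, where it is high, so that p describes a gene kept for that height and is no support for a difference. This call held in 7 of 16 alternatives. It did not hold when any MycT58A or any control library was left out, with edgeR adjusted p between 0.0578 and 0.137, nor with the 2 tumour groups alone (0.0738), without the count filter (0.0545) or with limma-voom weighted per group (0.0572). It held without the library labelled EV replicate 3 (-3.03, edgeR adjusted p = 0.0215). Set against a floor of 3 counts over the control group, Fgf3 was at least 2.01-fold higher in MycT58A tumours and at least 23-fold higher in EV tumours. Both differences from control passed (edgeR adjusted p = 0.0213 and 0.00109), the one for MycT58A tumours not without MycT58A replicate 1 (0.0517) or replicate 2 (0.0516). The p-value of EV tumours against control has the same limit from the count filter and is no support for a difference. That of MycT58A tumours rests on 3, 3 and 1 counts against none.

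Fgf3 lies next to Fgf4 and Fgf15 on chromosome 7 (Fgf3 144838083-144844436, Fgf4 144847367-144865243, Fgf15 144896531-144900953, all plus strand, mm10). Fgf4, a ligand of early embryos, had 5, 7 and 1 counts in MycT58A tumours, 2, 5 and 22 counts in EV tumours and none in control. Fgf15, the mouse counterpart of human FGF19, had 8, 3 and 2 counts in MycT58A tumours, 4, 2 and 29 counts in EV tumours and none in control. For both, the library labelled EV replicate 3 was highest, and the tumour groups overlapped. Against the control floor both were at least 3.74-fold higher in MycT58A tumours, and in EV tumours Fgf4 was at least 9.41-fold and Fgf15 at least 11.4-fold higher.

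The isthmus ligands were nearly confined to the library labelled EV replicate 3 among these 9 libraries. Fgf8 had 0, 2 and 0 counts in MycT58A tumours, 8, 0 and 65 counts in EV tumours and none in control. Fgf17 had 1, 1 and 0 counts in MycT58A tumours, 0, 0 and 85 counts in EV tumours and 0, 1 and 0 counts in control. Other counts of these genes were 8 of Fgf8 in EV replicate 1 and at most 2 elsewhere. Over the groups, Fgf8 was 41.2 times higher in EV than in MycT58A tumours (exact 95% interval 11 to 347) and Fgf17 48 times (12.9 to 403), intervals that cover counting error only. The epithelial marker sum of 1270 CPM belongs to the same library, and its part in these values was not tested.

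Fgf18 and Fgf10 had low levels that differed between libraries. Fgf18, a secreted ligand of the Fgf8 subfamily, had 3.53, 2.70 and 2.39 CPM in MycT58A tumours, 0.822, 8.71 and 6.86 CPM in EV tumours and 1.02, 1.20 and 0.373 CPM in control. It was above control in every MycT58A library but not in EV replicate 1. The rise passed in EV tumours (log2 fold change 2.65 ± 0.81, edgeR adjusted p = 0.0221) and not in MycT58A tumours (1.72 ± 0.79, edgeR adjusted p = 0.0871). The EV call was lost without control replicate 1, control replicate 3 or EV replicate 2 (edgeR adjusted p = 0.0561, 0.0705 and 0.0512) and with limma-voom. Fgf10, which acts between mesenchyme and epithelium, had 4.10, 5.50 and 4.35 CPM in MycT58A tumours, 1.16, 0.765 and 0.170 CPM in EV tumours and 0.613, 2.13 and 2.61 CPM in control. All MycT58A libraries were above all others, but no comparison passed: the difference from EV tumours was 2.70 ± 0.73 (edgeR adjusted p = 0.0550), and it passed without the library labelled EV replicate 3 (2.26 ± 0.64, edgeR adjusted p = 0.0384) or EV replicate 1 (3.28, edgeR adjusted p = 0.0451).

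**Figure D3:**
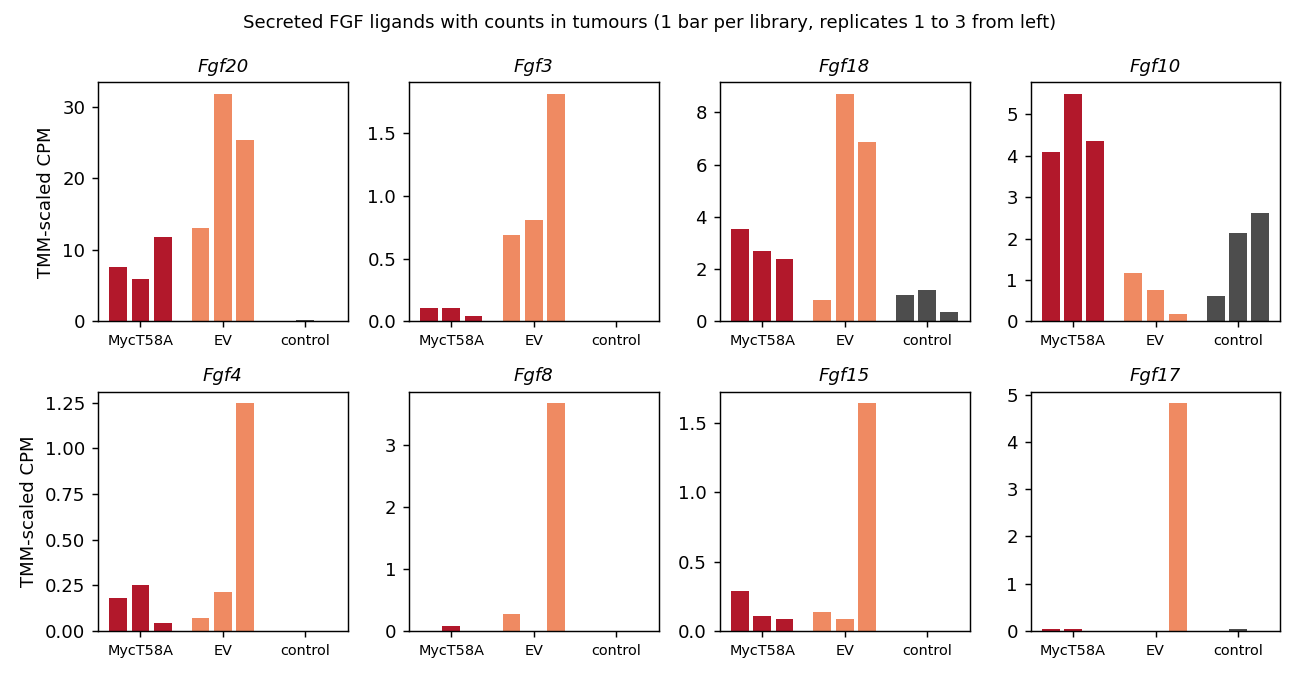
CPM of 8 secreted ligand genes with counts in tumours, 1 bar per library from replicate 1 to 3, each axis starting at 0. Fgf20 and Fgf3 are higher in all 3 EV bars than in all 3 MycT58A bars, and the Fgf8 and Fgf17 panels are carried by the bar of EV replicate 3.

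The secreted ligands of normal cerebellum were far lower in both tumour groups. Fgf9, a ligand that neurons and glia secrete, had 0.504, 0.0710 and 0.426 CPM in MycT58A tumours, 0.0685, 0.552 and 1.36 CPM in EV tumours and 43.4, 39.2 and 35.9 CPM in control. Fgf7, a ligand of the Fgfr2b isoform, had 0.288, 0.497 and 0.213 CPM in MycT58A tumours, 0.274, 0.637 and 0.113 CPM in EV tumours and 36.9, 32.5 and 20.9 CPM in control. Neither gene's tumour libraries came near its control libraries. The log2 fold change of Fgf9 was -6.87 ± 1.0 in MycT58A tumours and -5.95 ± 0.95 in EV tumours, and that of Fgf7 was -6.47 ± 0.64 in MycT58A tumours and -6.41 ± 0.64 in EV tumours (edgeR adjusted p from 8.69e-05 to 0.00102). Without the library labelled EV replicate 3 the value of Fgf9 in EV tumours was -7.01, and without EV replicate 2 that of Fgf7 was -7.15.

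Fgf1, a ligand that binds all FGF receptors, was also lower, with tumour libraries far apart from each other. It had 8.49, 0.390 and 2.17 CPM in MycT58A tumours, 4.45, 24.0 and 2.61 CPM in EV tumours and 125, 69.7 and 94.4 CPM in control, with no overlap with control. It fell by 4.70 ± 1.19 in MycT58A tumours (edgeR adjusted p = 0.00820) and fell by 3.21 ± 1.11 in EV tumours (edgeR adjusted p = 0.0347). Without MycT58A replicate 1 the first value was -6.23, and without EV replicate 2 the second was -4.75. The EV call was lost without any control library, EV replicate 1 or the library labelled EV replicate 3 (edgeR adjusted p from 0.0546 to 0.0948).

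Of the remaining secreted ligands, Fgf5 had 0, 0 and 3 counts in MycT58A tumours, 1, 0 and 0 counts in EV tumours and 60, 68 and 111 counts in control, and so was 92.4 times lower in MycT58A tumours (exact 95% interval 31.2 to 451) and 246 times lower in EV tumours (43.7 to 9740). Fgf2, a widely acting ligand, had 4, 3 and 4 counts in MycT58A tumours, 6, 4 and 3 counts in EV tumours and 20, 20 and 16 counts in control. It fell by 2.51 ± 0.44 in MycT58A tumours and fell by 2.13 ± 0.44 in EV tumours (edgeR adjusted p = 0.00138 and 0.00353), and its exons overlap those of Nudt6 on the opposite strand. Fgf22, which organises synapses, had 6, 5 and 1 counts in MycT58A tumours, 9, 3 and 9 counts in EV tumours and 17, 16 and 12 counts in control. Its fall passed in MycT58A tumours (-2.11 ± 0.68, edgeR adjusted p = 0.0236) and was lost without any control library or without MycT58A replicate 2 or 3 (edgeR adjusted p from 0.0513 to 0.0731). In EV tumours it stood at -1.07 ± 0.65 (edgeR adjusted p = 0.185). Its exons share 82 bases with Rnf126 on the opposite strand. Fgf2 and Fgf22 passed the count filter only through the control libraries, where they are high. Their p-values against control therefore describe genes kept for that height and are no support for a difference.

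The endocrine ligand Fgf23 had no count in MycT58A tumours, 1 count in EV tumours and 5, 15 and 10 counts in control, which makes it at least 11.6-fold lower in MycT58A tumours. Fgf21, a second endocrine ligand, had 3, 13 and 0 counts in MycT58A tumours, 1, 3 and 1 counts in EV tumours and 1, 0 and 0 counts in control. Fgf16 had no count in MycT58A tumours, 1 in EV tumours and 3 in control. Fgf6 and Spry3 had no count in any library, which over a group allows up to 0.0378 CPM in MycT58A tumours, 0.0426 CPM in EV tumours and 0.0438 CPM in control.

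The intracellular FGF genes Fgf11, Fgf12 and Fgf14 fell in both tumour groups. Fgf12 had 3.78, 0.284 and 2.6 CPM in MycT58A tumours, 0.890, 1.02 and 0.510 CPM in EV tumours and 215, 194 and 172 CPM in control. Fgf14, which sets the firing of cerebellar neurons and is mutated in a human spinocerebellar ataxia, had 1.91, 0.923 and 1.96 CPM in MycT58A tumours, 0.0343, 4.80 and 0.284 CPM in EV tumours and 54.1, 70.2 and 56.1 CPM in control. No tumour library reached a control library in either gene. Fgf12 fell by 6.45 ± 0.81 in MycT58A tumours (edgeR adjusted p = 0.000244) and fell by 7.88 ± 0.87 in EV tumours (edgeR adjusted p = 0.000166). Fgf14 fell by 5.23 ± 1.28 in MycT58A tumours (edgeR adjusted p = 0.00702) and fell by 5.13 ± 1.28 in EV tumours (edgeR adjusted p = 0.00882). Without MycT58A replicate 1, Fgf12 was at -7.07 in MycT58A tumours, and without EV replicate 1 or 2, Fgf14 was at -4.54 or -8.74 in EV tumours.

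Fgf11 had 1.08, 0.532 and 1.24 CPM in MycT58A tumours, 0.0685, 0.934 and 1.42 CPM in EV tumours and 57.5, 52.3 and 46.5 CPM in control. It fell by 5.78 ± 0.84 in MycT58A tumours and fell by 6.05 ± 0.85 in EV tumours (edgeR adjusted p = 0.000496 and 0.000532), and without the library labelled EV replicate 3 the EV value was -6.73. Fgf13 kept more of its level, with 8.42, 12.2 and 7.46 CPM in MycT58A tumours, 0.719, 11.8 and 2.10 CPM in EV tumours and 29.7, 21.9 and 21.1 CPM in control. Its difference was -1.37 ± 0.82 in MycT58A tumours (edgeR adjusted p = 0.174) and -2.31 ± 0.85 in EV tumours (edgeR adjusted p = 0.0437). Both tumour groups lay wholly below control. In MycT58A tumours the fall passed with only the 2 groups compared (edgeR adjusted p = 0.00094) and without EV replicate 2 (edgeR adjusted p = 0.0135). It also passed there with limma-voom weighted per group (limma adjusted p = 0.00041). The EV call was lost in 8 of the 9 fits that leave out a library (edgeR adjusted p from 0.0510 to 0.102), and without EV replicate 2 the value was -4.13. Markers of the neurons of this tissue moved with these genes. Of 10 granule neuron markers 9 fell in each tumour group (90%), where 31% of all genes fell in MycT58A and 26.3% in EV tumours. These markers summed to 162 to 203 CPM in MycT58A tumours, 75 to 155 CPM in EV tumours and 3810 to 5170 CPM in control. All 9 Purkinje cell markers fell in each tumour group, and they summed to 127 to 207, 139 to 963 and 12700 to 18300 CPM in the same order of groups. Their part in the ligand values was not tested.

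Per kilobase of exon, the scale on which genes can be compared, the 22 ligand genes together had 14.1, 11.5 and 13.9 CPM in MycT58A tumours, 10.8, 36.4 and 30.5 CPM in EV tumours and 120, 106 and 96.8 CPM in control. These sums include the intracellular Fgf11 to Fgf14, whose falls weigh heavily in them. Those genes averaged 0.312 to 2.33 CPM per kilobase in MycT58A tumours, 0.13 to 1.21 in EV tumours and 6.02 to 31.2 in control. The secreted ligands were not summed on their own, so the sums are no measure of their loss. In control the highest were Fgf12 (31.2 ± 3.44 CPM per kilobase, SD, n = 3), Fgf1 (17.6 ± 5.04) and Fgf11 (17.1 ± 1.80), followed by Fgf14 (14.4 ± 2.10), and Fgf1, Fgf11 and Fgf14 overlap in their ranges. In the tumours Fgf20 led, with 5.03 ± 1.82 CPM per kilobase in MycT58A tumours and 13.9 ± 5.69 in EV tumours. Next in MycT58A tumours came Fgf18 (2.42 ± 0.50) and Fgf13 (2.33 ± 0.63), whose ranges overlap. In EV tumours Fgf18 followed at 4.60 ± 3.47, and only in EV replicate 1 did it lie under 1.

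The mix of receptor genes differed between the groups. Summed over Fgfr1 to Fgfr4, MycT58A tumours had 21.3, 23.3 and 17.4 CPM per kilobase, EV tumours 22.9, 35.6 and 27.8, and control cerebellum 28.1, 30.7 and 27.9. Fgfr1 made up 75.1%, 79.6% and 75.2% of that sum in MycT58A tumours, 40.7%, 66.1% and 90.6% in EV tumours and 40.4%, 37.9% and 39.8% in control. Fgfr3 made up 8.17% to 8.76% in MycT58A tumours, 5.02% to 7.36% in EV tumours and 35.9% to 38.2% in control. The EV libraries were farther apart than the MycT58A libraries in the share of each receptor gene, Fgfr1 to Fgfr4.

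**Figure D4:**
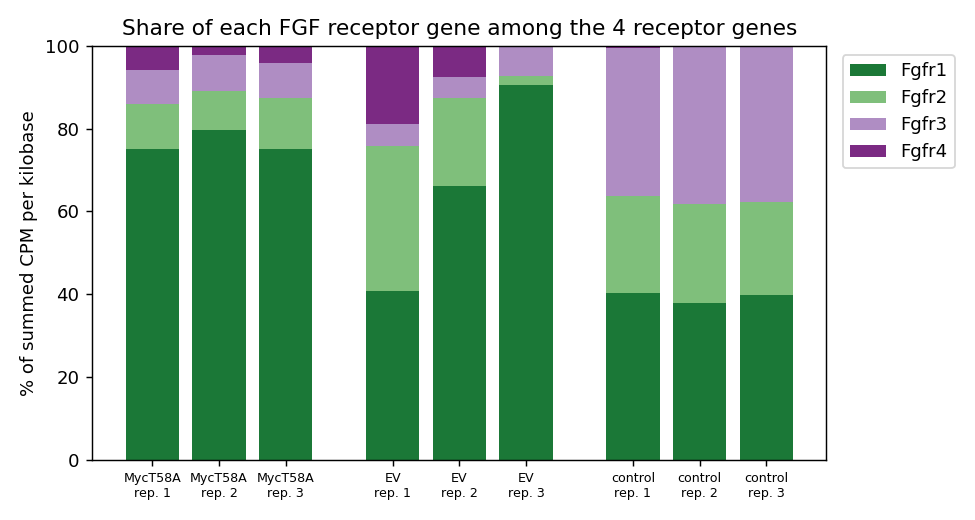
Share of each FGF receptor gene in the summed CPM per kilobase of the 4 receptor genes, 1 stacked bar per library. The control bars are split among Fgfr1, Fgfr2 and Fgfr3, the MycT58A bars are about 75% to 80% Fgfr1, and the 3 EV bars differ from each other.

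Fgfr3, a receptor of astrocytes and their precursors, was the receptor that fell. It had 12.5, 14.6 and 10.5 CPM in MycT58A tumours, 8.70, 12.8 and 14.6 CPM in EV tumours and 72.3, 84.1 and 75.1 CPM in control. The tumour groups overlapped each other and stayed far below control. Its log2 fold change was -2.62 ± 0.25 in MycT58A tumours (edgeR adjusted p = 7.28e-05) and -2.68 ± 0.25 in EV tumours (edgeR adjusted p = 7.97e-05), and 0.06 ± 0.24 between the tumours. Of 10 astrocyte and Bergmann glia markers, 9 fell in MycT58A tumours (90%) and 7 in EV tumours (70%), against 31% and 26.3% of all genes. These markers summed to 298 to 613 CPM in MycT58A tumours, 690 to 920 CPM in EV tumours and 4410 to 5690 CPM in control. Their part in the Fgfr3 values was not tested.

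Fgfr4, a receptor with little expression in adult brain, rose. It had 4.46, 1.85 and 2.6 CPM in MycT58A tumours, 15.2, 9.60 and 0.0567 CPM in EV tumours and 0.327, 0.0886 and 0.0933 CPM in control. The library labelled EV replicate 3 had 1 count and was below every control library, while the other 5 tumour libraries were above control. The log2 fold change was 4.07 ± 1.42 in MycT58A tumours (edgeR adjusted p = 0.0329) and 5.55 ± 1.49 in EV tumours (edgeR adjusted p = 0.0122). Without the library labelled EV replicate 3 the EV value was 6.16 ± 0.66 (edgeR adjusted p = 0.000243), without EV replicate 1 it was 4.77, and without control replicate 1, which holds most of the 12 control counts, the values were 4.96 in MycT58A and 6.45 in EV tumours. The MycT58A call was lost without any control library or without MycT58A replicate 1 or 3 (edgeR adjusted p from 0.0538 to 0.100) and both calls with limma-voom.

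Fgfr2 and Fgfr1 passed in no comparison with all 9 libraries in edgeR. Fgfr2 had 23.9, 22.6 and 21.7 CPM in MycT58A tumours, 83.2, 78.2 and 5.78 CPM in EV tumours and 67.8, 75.4 and 65.1 CPM in control. The MycT58A libraries were all below control, and the library labelled EV replicate 3 was far below the other 8. With it, the log2 fold change of MycT58A tumours was -1.61 ± 0.73 against control (edgeR adjusted p = 0.0836) and -1.29 ± 0.72 against EV tumours (edgeR adjusted p = 0.254). Without it, these values were -1.59 ± 0.14 (edgeR adjusted p = 5.26e-05) and -1.83 ± 0.15 (edgeR adjusted p = 0.000932). The difference from control also passed with only the 2 groups compared, with DESeq2 and with limma-voom weighted per group (adjusted p from 4.66e-06 to 0.0379). In EV tumours against control, Fgfr2 was at -0.32 ± 0.71 with that library and 0.24 ± 0.15 without it. Fgfr2 shares 314 exon bases with Ctbp2 on the same strand, which limits how reads of the pair were assigned. Fgfr1 had 158, 183 and 129 CPM in MycT58A tumours, 91.8, 232 and 248 CPM in EV tumours and 112, 115 and 110 CPM in control. Its log2 fold change was 0.48 ± 0.34 in MycT58A tumours (edgeR adjusted p = 0.247) and 0.76 ± 0.34 in EV tumours (edgeR adjusted p = 0.0852), with EV replicate 1 below control. Without EV replicate 1 both passed, at 0.49 in MycT58A tumours (edgeR adjusted p = 0.0316) and 1.1 in EV tumours (edgeR adjusted p = 0.00212), and the MycT58A value also with only the 2 groups compared (0.0121).

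The brakes split: Dusp4, Dusp6, Spry1 and Spred2 rose in both tumour groups, and Dusp5 and Spry2 fell in both. Dusp6, a cytoplasmic phosphatase specific to ERK, had 80, 110 and 117 CPM in MycT58A tumours, 161, 234 and 64.1 CPM in EV tumours and 12, 11.4 and 14.4 CPM in control. Dusp4, its nuclear relative, had 56.4, 39.0 and 37.2 CPM in MycT58A tumours, 39.6, 54.9 and 70.9 CPM in EV tumours and 2.86, 3.10 and 3.17 CPM in control. For both genes every tumour library was above every control library and the tumour groups overlapped. Dusp6 was 8.11-fold higher in MycT58A tumours (log2 fold change 3.02 ± 0.44, edgeR adjusted p = 0.000490) and 12.2-fold higher in EV tumours (3.60 ± 0.45, edgeR adjusted p = 0.000282). Dusp4 was 14.5-fold higher in MycT58A tumours (3.86 ± 0.29, edgeR adjusted p = 3.31e-05) and 18.1-fold higher in EV tumours (4.18 ± 0.30, edgeR adjusted p = 2.83e-05). Without the library labelled EV replicate 3, Dusp6 was lower in MycT58A than in EV tumours (-0.95 ± 0.23, edgeR adjusted p = 0.0251), against -0.58 ± 0.40 with it (edgeR adjusted p = 0.349).

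Spry1, a Sprouty inhibitor of receptor tyrosine kinase signalling, had 22.7, 29.8 and 20.6 CPM in MycT58A tumours, 51.9, 42.3 and 27.6 CPM in EV tumours and 4.94, 3.72 and 3.64 CPM in control. It rose by 2.57 ± 0.30 on the log2 scale in MycT58A tumours (edgeR adjusted p = 0.000189) and by 3.30 ± 0.31 in EV tumours (edgeR adjusted p = 8.39e-05). The tumour groups overlapped through EV replicate 3, and their difference was -0.74 ± 0.29 with that library (edgeR adjusted p = 0.124) and -0.95 ± 0.25 without it (edgeR adjusted p = 0.0309). Spred2 had 57.6, 52.8 and 48.7 CPM in MycT58A tumours, 48.5, 33.6 and 48.1 CPM in EV tumours and 29.8, 32.5 and 28.5 CPM in control, all tumour libraries being above control. It rose by 0.81 ± 0.20 in MycT58A tumours (edgeR adjusted p = 0.00691). The rise in EV tumours was 0.52 ± 0.20 at an edgeR adjusted p of 0.0495, which was lost in 8 of the 9 fits that leave out a library (0.0720 to 0.129).

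Spry4, a Sprouty protein that acts upstream of RAF, was the brake that differed between the tumours. It had 9.53, 8.52 and 17.4 CPM in MycT58A tumours, 51.5, 29.1 and 40.8 CPM in EV tumours and 6.54, 7.80 and 12.8 CPM in control. All EV libraries were above all others, while MycT58A and control libraries overlapped. The log2 fold change was 0.38 ± 0.38 in MycT58A tumours against control (edgeR adjusted p = 0.404) and 2.16 ± 0.40 in EV tumours against control (edgeR adjusted p = 0.00207). MycT58A tumours were 3.42-fold lower than EV tumours (-1.78 ± 0.39, edgeR adjusted p = 0.0340), and -1.78 ± 0.44 without the library labelled EV replicate 3 (edgeR adjusted p = 0.0245). This call held in 8 of 17 alternatives, with log2 fold changes between -2.16 and -1.56. It was lost without any control library, any MycT58A library or EV replicate 1 (edgeR adjusted p from 0.0505 to 0.128), with the 2 tumour groups alone (0.0899) and with limma-voom weighted per group (0.0788).

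Dusp5, a nuclear ERK phosphatase, went the other way from Dusp4 and Dusp6. It had 1.51, 0.390 and 1.32 CPM in MycT58A tumours, 0.959, 0.680 and 2.10 CPM in EV tumours and 27.5, 28.3 and 25.3 CPM in control. It was 25.1-fold lower in MycT58A tumours (log2 fold change -4.65 ± 0.61, edgeR adjusted p = 0.000307) and 21.8-fold lower in EV tumours (-4.45 ± 0.61, edgeR adjusted p = 0.000452). Spry2, the most widely studied Sprouty, had 22.1, 18.7 and 26.9 CPM in MycT58A tumours, 15.8, 53.1 and 19.5 CPM in EV tumours and 80.4, 70.7 and 70.2 CPM in control. Both genes were below control in all 6 tumour libraries. Spry2 fell by 1.71 ± 0.43 in MycT58A tumours (edgeR adjusted p = 0.00825) and fell by 1.32 ± 0.43 in EV tumours (edgeR adjusted p = 0.0273). Without EV replicate 2 the EV value was -2.06, and the EV call was lost without any control library, EV replicate 1 or the library labelled EV replicate 3 (edgeR adjusted p from 0.0542 to 0.0684).

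Spred1, which recruits neurofibromin to RAS, had 176, 133 and 165 CPM in MycT58A tumours, 96.7, 132 and 91.8 CPM in EV tumours and 166, 190 and 200 CPM in control. It fell in EV tumours (-0.79 ± 0.20, edgeR adjusted p = 0.0101) and stood at -0.23 ± 0.20 in MycT58A tumours (edgeR adjusted p = 0.345). All MycT58A libraries were above all EV libraries, by 0.56 ± 0.20 in the fit (edgeR adjusted p = 0.105) and by 0.75 without EV replicate 2 (edgeR adjusted p = 0.0250). Spred3 had 2.59, 2.77 and 2.22 CPM in MycT58A tumours, 3.08, 24.6 and 5.10 CPM in EV tumours and 16, 14.5 and 13.4 CPM in control, with EV replicate 2 above control and all other tumour libraries below it. Its fall passed in MycT58A tumours (-2.53 ± 0.71, edgeR adjusted p = 0.0128) and the difference in EV tumours was -0.42 ± 0.66 (edgeR adjusted p = 0.602). Between the tumours it differed by -2.11 ± 0.70 (edgeR adjusted p = 0.0864), by -2.43 ± 0.68 without the library labelled EV replicate 3 (0.0376), by -2.55 without EV replicate 1 (0.0333) and by -0.69 without EV replicate 2. Its exons share 202 bases with Ggn on the opposite strand.

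The ETS factors split as well. Etv4 had 108, 71.6 and 67.0 CPM in MycT58A tumours, 74.2, 118 and 102 CPM in EV tumours and 17.5, 13.4 and 19.5 CPM in control. Etv5 had 150, 114 and 131 CPM in MycT58A tumours, 206, 127 and 98.5 CPM in EV tumours and 62.8, 78.5 and 76.8 CPM in control. Both were above control in all 6 tumour libraries, and the tumour groups overlapped. Etv4 rose by 2.29 ± 0.28 in MycT58A tumours (edgeR adjusted p = 0.000206) and by 2.55 ± 0.28 in EV tumours (edgeR adjusted p = 0.000161). Etv5 rose by 0.86 ± 0.27 in MycT58A tumours (edgeR adjusted p = 0.0237) and by 0.98 ± 0.28 in EV tumours (edgeR adjusted p = 0.0148). The Etv5 calls were lost without control replicate 1 (edgeR adjusted p = 0.0790 in MycT58A and 0.0513 in EV tumours), and that in MycT58A tumours also without control replicate 3 (0.0507), MycT58A replicate 1 (0.0783) or MycT58A replicate 3 (0.0563).

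Etv1, which granule neurons of the cerebellum express as they mature, fell. It had 25.2, 15.9 and 22.3 CPM in MycT58A tumours, 2.98, 3.91 and 18.6 CPM in EV tumours and 295, 347 and 247 CPM in control. All tumour libraries were far below control, and the library labelled EV replicate 3 was among the MycT58A values. It was 14-fold lower in MycT58A tumours (-3.81 ± 0.68, edgeR adjusted p = 0.00139) and 35.1-fold lower in EV tumours (-5.13 ± 0.72, edgeR adjusted p = 0.000525). Between the tumours it differed by 1.32 ± 0.62 with the library labelled EV replicate 3 (edgeR adjusted p = 0.184) and by 2.61 ± 0.27 without it (edgeR adjusted p = 0.00185), and without it the EV value against control was -6.41. The granule neuron markers, counted without Etv1, are those given above, and their part in the Etv1 values was not tested.

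**Figure D5:**
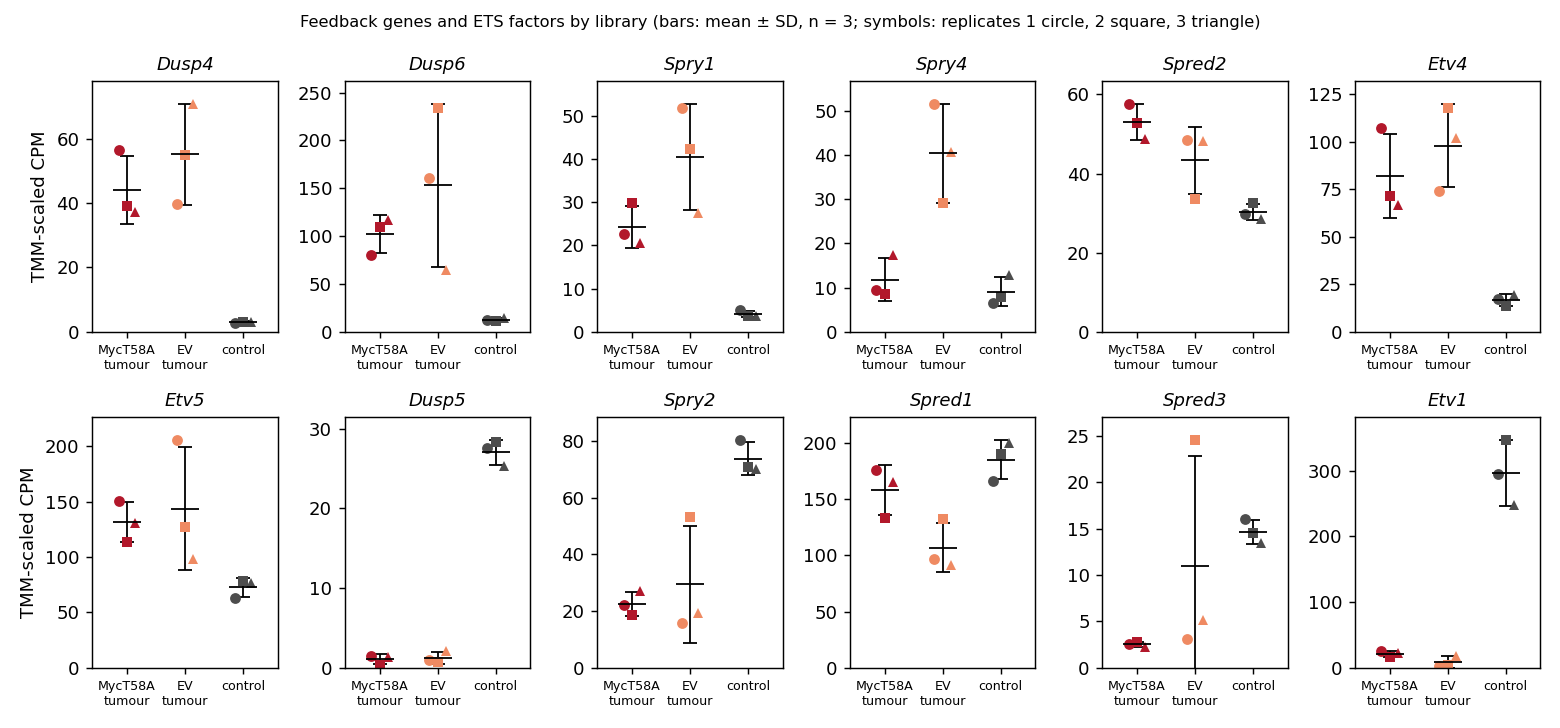
CPM in each library of 12 feedback and ETS genes, each panel with MycT58A tumours, EV tumours and control from left to right, the mean and SD of 3 libraries as bars (cut off at 0) and replicates 1, 2 and 3 as circle, square and triangle. The upper row and Etv5 hold the genes that rose in at least 1 tumour group, with MycT58A Spry4 at the control level, and the other panels hold those that fell in at least 1.

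The members varied unequally across the groups. The median SD of log2 CPM over the 30 tested members was 0.34 in MycT58A tumours, 0.79 in EV tumours and 0.17 in control, and over all genes tested it was 0.20, 0.64 and 0.17. The SD in EV tumours exceeded that in MycT58A tumours for 76.7% of the tested members, against 86.1% of all genes. Markers of cell types that the host can supply varied too: 10 pericyte and fibroblast markers summed to 1420 to 1780 CPM in MycT58A tumours, 3330 to 13900 CPM in EV tumours and 284 to 354 CPM in control. The 12 microglia and macrophage markers summed to 76 to 166, 442 to 671 and 201 to 253 CPM, and 10 endothelial markers to 63.5 to 112, 71.5 to 360 and 237 to 260 CPM, in the same order of groups. These sums were higher in EV than in MycT58A tumours, as Spry4, Fgf3 and Fgf20 were, with overlap for the endothelial sum. Between the tumours 4 of the 12 microglia markers (33.3%) passed the test, against 8.3% of all genes. So did 1 of the 10 pericyte and fibroblast markers (10%, near that share) and 0 of the 10 endothelial markers. Their part in those differences was not tested.

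Other genes that ERK signalling is known to induce were read from a list of 28, of which 27 were tested. In MycT58A tumours 14 rose and 6 fell against control (74.1% called, against 62.2% of all genes), with a median log2 fold change of 1.30 beside -0.03 for all genes. In EV tumours 15 rose and 6 fell (77.8% called, against 57% of all genes), with a median of 1.40 beside 0.14. The smallest p-values among those that rose were those of Epha2, an ephrin receptor (26.3-fold in MycT58A and 68.6-fold in EV tumours), Il17rd, itself an inhibitor of FGF signalling also called Sef (14.3-fold and 48.2-fold), Egr3 in MycT58A tumours (22.4-fold) and Ccnd1, the gene of cyclin D1, in EV tumours (13.5-fold). Egr3, with 5, 8 and 7 control counts, passed the count filter through tumour libraries alone. Its p-value against control is therefore no support for a difference. The same limit falls on Egr2, with 1, 2 and 2 control counts, which is among the rises counted. Other listed genes can share it, so the called shares of this and the following lists carry no test. The falls with the smallest p-values were those of Arc (52.6-fold in MycT58A and 56.4-fold in EV tumours) and Rasgrp1 (98-fold and 66.3-fold), both genes of mature neurons, with Spsb1 in MycT58A tumours (6.28-fold) and Vgf in EV tumours (29.3-fold).

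Between the tumours, 4 of these 27 genes fell and none rose (14.8% against 8.3% of all genes), with a median of -0.61 beside -0.04. Il17rd had 84.0, 47.4 and 55.7 CPM in MycT58A tumours, 278, 168 and 186 CPM in EV tumours and 4.13, 5.05 and 3.92 CPM in control (-1.76 ± 0.28, edgeR adjusted p = 0.0150). Ccnd1 had 174, 208 and 161 CPM in MycT58A tumours, 339, 740 and 426 CPM in EV tumours and 33.4, 41.2 and 36.5 CPM in control (-1.47 ± 0.29, edgeR adjusted p = 0.0261). Fosl2, an AP-1 subunit, had 18.9, 15.3 and 13.9 CPM in MycT58A tumours, 50.8, 63.6 and 87.5 CPM in EV tumours and 5.39, 5.85 and 9.80 CPM in control (-2.07 ± 0.31, edgeR adjusted p = 0.0130). In all 3 genes every MycT58A library lay between control and EV tumours, without overlap, as did the fourth gene, Epha2 (-1.38 ± 0.32, edgeR adjusted p = 0.0382). All 4 calls were lost without MycT58A replicate 2 or 3 and with the 2 tumour groups alone, and those of Ccnd1, Fosl2 and Epha2 also without MycT58A replicate 1 (edgeR adjusted p from 0.0605 to 0.144). Those of Ccnd1 and Epha2 were lost too without control replicate 1 or 2 (from 0.0535 to 0.0710), and that of Ccnd1 without control replicate 3 (0.0552).

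Of 29 tested co-receptors and extracellular modulators of FGF, 9 rose and 5 fell in MycT58A tumours (48.3% called, against 62.2% of all genes), and 11 rose and 5 fell in EV tumours (55.2% against 57%). These shares are at or under those of all genes. Sdc1 (11.5-fold in MycT58A and 12.4-fold in EV tumours) and Gpc4 (13.9-fold and 18-fold), which encode heparan sulphate carriers, had the smallest p-values among the rises, with Fgfrl1, a receptor without a kinase (5.25-fold and 7.23-fold). The adhesion molecules Ncam1 (18-fold and 33.6-fold) and Cntn1 (50.8-fold and 61.6-fold) fell, as did Sdc3 in MycT58A tumours (12.6-fold) and Hs6st1 in EV tumours (1.62-fold, lost without control replicate 1 at an edgeR adjusted p of 0.0724). Between the tumours Hs6st1, a heparan sulphate sulphotransferase, was higher in MycT58A tumours (0.81 ± 0.19, edgeR adjusted p = 0.0419), and the syndecans Sdc3 (-3.21 ± 0.39, edgeR adjusted p = 0.00783) and Sdc4 (-1.26 ± 0.31, edgeR adjusted p = 0.0446) were lower. Sdc3 had 47.1, 27.1 and 30.9 CPM in MycT58A tumours, 424, 367 and 184 CPM in EV tumours and 398, 361 and 568 CPM in control. These 3 calls were lost without MycT58A replicate 2 or 3, that of Sdc3 at edgeR adjusted p of 0.0505 and 0.0607. Those of Hs6st1 and Sdc4 were lost without any control or MycT58A library (0.0764 to 0.150), that of Sdc4 also without EV replicate 1 or 2, and that of Hs6st1 with RLE scaling (0.0533).

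In the cascade between receptor and ERK, 37 genes were tested, and 9 rose and 16 fell in each tumour group against control (67.6% called, against 62.2% of all genes in MycT58A and 57% in EV tumours). The adaptor gene Shc1 rose 9.58-fold in MycT58A and 18.2-fold in EV tumours, with Rras2 in MycT58A tumours (3.14-fold) and Elk3, an ETS factor, in EV tumours (5.78-fold). Of the MEK genes, Map2k2 rose (2.31-fold and 2.35-fold) and Map2k1 fell (2.5-fold and 3.23-fold). The RAF genes Araf (2.75-fold and 2.21-fold) and Braf (3.09-fold and 3.26-fold) fell in both, and the adaptor gene Grb2 fell in MycT58A tumours (2.4-fold). Between the tumours 1 of the 37 passed, Elk3, which was lower in MycT58A tumours (-1.74 ± 0.29, edgeR adjusted p = 0.0164), with 2.7% called against 8.3% of all genes. 

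Of 20 other receptor tyrosine kinases upstream of RAS, 3 rose and 8 fell in MycT58A tumours (55% called, against 62.2% of all genes), and 4 rose and 5 fell in EV tumours (45% against 57%), shares under those of all genes. Beside Epha2, Erbb2 rose in both (3.06-fold and 3.23-fold), Met, the receptor of hepatocyte growth factor, in MycT58A tumours (17.1-fold) and Pdgfrb in EV tumours (5.71-fold). Erbb4 (43.9-fold and 45.7-fold) and the neurotrophin receptor gene Ntrk3 (47.4-fold and 32.7-fold) fell in both, Ret in MycT58A tumours (71.8-fold) and Kit in EV tumours (9.21-fold). Between the tumours Met was higher in MycT58A tumours (3.24 ± 0.48, edgeR adjusted p = 0.0130), at 16.4, 17.6 and 23.9 CPM against 1.85, 2.12 and 2.15 CPM in EV tumours and 0.45, 1.82 and 1.12 CPM in control. Pdgfrb (-2.44 ± 0.46, edgeR adjusted p = 0.0227), Pdgfra (-1.65 ± 0.40, edgeR adjusted p = 0.0424), Epha2 and Axl (-2.18 ± 0.53, edgeR adjusted p = 0.0431) were lower. The Axl call was not put through the alternatives. The calls of Met, Pdgfrb, Pdgfra and of Elk3 above were lost without any of the MycT58A libraries (edgeR adjusted p from 0.0555 to 0.155), that of Pdgfrb also without control replicate 2 (0.0501), and that of Pdgfra without any control library, EV replicate 1 or EV replicate 2 (0.0519 to 0.0757). Pdgfrb stands on the list of pericyte and fibroblast markers, which were higher in EV tumours as given above.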

How the data were processed

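Counts per gene symbol were deposited by the authors as whole numbers, and per the submitters' processing notes bcl2fastq, TopHat and edgeR were used with the mm10 build; their versions, the read counter and strand handling are not given in the sources read. Antisense overlaps can therefore not be separated. From these counts, genes were filtered with filterByExpr (minimum count 10, minimum total 15), scaled by TMM and fitted with edgeR 4.0.16 (R 4.3.3) by quasi-likelihood with 1 mean per group over all 9 libraries (6 residual degrees of freedom). P-values were adjusted by Benjamini-Hochberg over 15171 genes, threshold 0.05; the SE is the log2 fold change over the root of F. A p-value reflects library-to-library spread alone, which may be partly technical. The 3 groups share 1 dispersion per gene, so the spread of a group outside a comparison enters its SE and p-value. With only the 2 groups compared, MycT58A tumours against control gave 11883 called genes, against 9438 with all 9 libraries. EV tumours against control gave 7005, against 8643. Bounds use a floor of 3 counts per group, and exact 95% intervals cover counting error only. Positions and exon lengths come from GENCODE vM21. The members and lists were chosen with earlier results of these data known. Every member is accounted for. Of each list, up to 3 genes of smallest p per direction and comparison were named. A gene named for 1 tumour group may also have passed in the other. Axl, Braf in MycT58A tumours, and Epha2 as an ERK output lower in MycT58A than in EV tumours, were added after their values were seen. Replicates share no numbers in the labels. Alternatives were RLE scaling, library size alone, 2 other count filters, only the 2 groups compared, DESeq2 1.42.0, limma-voom 3.58.1 with and without weights per group, and leaving out each library. The test was also run on simulated counts that had 1 dispersion for all genes and groups. That run does not cover the unequal spread of these groups. Figures used matplotlib 3.10.9.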

Additional observations from a re-analysis of the deposited data

How the results depend on the processing

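No called log2 fold change that was put through the 17 alternatives changed sign. The calls of Axl, and of Braf in MycT58A tumours, were not put through them. Of 2478 single-gene values, 2270 kept direction and side of the threshold, 150 lost a call, 35 gained one and 23, all of uncalled values, turned sign. Of the 50 member calls, 36 held in every alternative that gave the gene an adjusted p, and 14 were lost in some. Among the 36, some had such a value in only 16 of the 17 alternatives. These were Fgf14 against control in both tumour groups, Fgf2 in MycT58A tumours and Fgf3 in EV tumours against control. Against control, the counts of called members stayed within 1.5 times of those given. Between MycT58A and EV tumours the 2 called members became 1 without a count filter, 1 with a minimum of 1 CPM, 0 with only the 2 groups, 5 with DESeq2, 0 with limma-voom weighted per group, and 0 to 9 when a library was left out: 0 without any control or MycT58A library, 4 without EV replicate 1, 5 without EV replicate 2 and 9 without the library labelled EV replicate 3. The count of all genes there, 1259, became 34 with only the 2 groups, 3422 with DESeq2, 449 with limma-voom weighted per group, and 36 to 3977 when a library was left out. Library size alone split it into 301 higher and 938 lower, against 498 and 761 with TMM, and moved the median of all genes to -0.17 from -0.04; DESeq2 gave -0.16. The cause was not tested. Counts under about 10 per library limit Fgf2, Fgf3, Fgf5, Fgf22 and the 9 untested members. No paired analysis was possible because the labels give no replicate numbers. Uncalled values that turned sign were mostly near 0. Against control in EV tumours, leaving out a library gave Spred3 -1.84 to 0.020 and Fgfr2 -0.72 to 0.24. Between the tumours it gave Etv5 -0.35 to 0.23, Fgf1 -3.01 to 0.052, Fgf11 -0.30 to 0.97, Fgf14 -0.69 to 3.51 (passing without EV replicate 2, edgeR adjusted p = 0.0151), Fgf5 -1.87 to 3.07, Fgf7 -0.45 to 0.69, Fgf9 -1.49 to 0.15, Fgfr3 -0.12 to 0.23, Spry2 -0.68 to 0.36 and Dusp5 -0.53 to 0.36. With limma-voom, without and with group weights, Fgf14 was at 1.90 and 1.92 and Fgf7 at 0.13 and 0.12. Fgfr3 was at -0.086 with library size alone and -0.025 with only the 2 groups.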
